A study of Arabidopsis thaliana with 18 samples.

Results

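The genes described here are 105 genes of Arabidopsis thaliana, each read by 1 probe set, whose signal was lower on every array from plants given ultraviolet light (UV) than on every array from plants kept in continuous light (CO). A probe set is the group of short array oligonucleotides that together report 1 transcript. The members were chosen on the deposited signals, with values under 16 set to 16: the lowest value on the 9 CO arrays had to be more than 1.5 times the highest value on the 9 UV arrays. Of the 13513 probe sets annotated to 1 gene, which cover 13356 genes, 107 (0.792%) met this, and IAA29 and a gene of the plastid genome were left out, as the rule asks for 8 named nuclear genes and for plastid genes. A further 104 probe sets that met the signal rule are not listed in the supplied annotation, and 2 are listed with several genes, so these carry no name here. UV against CO thus chose the members, and every UV change below is a description without a test.

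The 18 arrays came from single 18-day-old plants of tt4, a mutant impaired in making flavonoids, of sng1, a mutant impaired in making sinapoyl malate, and of the wild type Col-0 (WT). In all 3 genotypes the aerial region was harvested, and all plants had grown for 17 days on solid medium with 1% sucrose at 22 °C under 16 h of light and 8 h of dark. On day 18 the UV plants received 24 h of ultraviolet light and the CO plants 24 h of continuous light, which for CO meant 8 h of additional light. The harvest of all plants is given as 6 h after the bright phase. For the UV plants no additional light is stated, so ultraviolet light and any difference in the white light cannot be told apart. The 6 groups are tt4 UV, sng1 UV, WT UV, tt4 CO, sng1 CO and WT CO, with 3 plants each, and an array is named by its group and replicate, as in WT UV 1. Each mutant stands for 1 line, and p-values measure the spread between single plants.

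In shoots, young leaves and elongating petioles grow by loosening and remodelling the cell wall, which expansins, pectin-modifying enzymes, cellulases and secreted signalling peptides take part in. Chloroplast proteins and the photorespiratory cycle serve the photosynthesis of the same organs. Flavonoids and sinapate esters collect in the epidermis and absorb ultraviolet light before it reaches the tissue below, and plants without them are more sensitive to it. Ultraviolet-B radiation is known to restrain the elongation and expansion of leaves and stems.

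On the log2 scale, after quantile normalization between arrays, the median UV minus CO over the 105 genes was -1.60 in tt4, -1.44 in sng1 and -1.42 in WT, against 0 over all 22746 probe sets in each. Single genes lay between -2.81 and -0.80 in tt4, between -3.03 and -0.75 in sng1 and between -2.42 and -0.90 in WT, and the median standard error (SE) of such a change was 0.196. UV signals were at least 2 times lower for 104 members in tt4, 95 in sng1 and 98 in WT, and for 89 in all 3. In limma, with an adjusted p under 0.05 as the call, 14.1% of all probe sets were called lower under UV in tt4, 11.6% in sng1 and 11.9% in WT, and all 105 members were among them in each genotype, which the rule itself brings about. The share of all probe sets called higher was 12.7% in tt4, 11.9% in sng1 and 12.5% in WT. Counts of called genes in families and lists below are to be read against these shares. A gene is termed measured below if a probe set is annotated to it alone. Of the 22746 probe sets, 8730 are not listed in the annotation, so a gene not measured in this sense may still be on the array. No family or list was tested as a set. Because whole shoots were measured, fewer cells of a type and less RNA per cell cannot be told apart in any of these values.

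The titles of the samples carry a running code that places all UV arrays before all CO arrays, so its order and the light cannot be told apart. The ratio of the 3′ to the 5′ control probe set of actin, a measure of how complete the RNA or its labelled copy is, was 3.04 ± 0.44 log2 units on UV arrays and 2.25 ± 0.26 on CO arrays (SD, n = 9 each), and the lights did not overlap (lowest UV value 2.56, highest CO value 2.54; two-sided exact permutation p = 4.114e-05, adjusted over 5 such ratios to 0.000206). Of the other 4 ratios, 1 GAPDH ratio also passed (0.0795 under UV and -0.00456 in CO; exact permutation, adjusted p = 0.0293), while the other GAPDH ratio was lower under UV (0.405 against 0.561 in CO) with an adjusted p of 0.0982 in the same exact permutation test. A second actin ratio was 1.03 under UV and 0.821 in CO (exact permutation, adjusted p = 0.0540), and the ubiquitin ratio was 1.37 under UV and 1.52 in CO (adjusted p = 0.0982). The part of these ratios in the UV changes was not tested. Arrays of 1 group correlated with each other at 0.972 to 0.991 over all probe sets.

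Among the secreted peptides, AT2G43550 was the member with the widest gap. It belongs to a small cluster of genes for defensin-like trypsin inhibitors, secreted proteins rich in cysteine. Its signals were 273.9, 397.4 and 331.5 in tt4 UV plants, 445.5, 354.5 and 383.5 in sng1 UV plants and 503.4, 314.2 and 359.4 in WT UV plants. In CO its signals were 1718.2, 2504.3 and 1623.0 in tt4, 1504.7, 1709.1 and 1760.2 in sng1 and 1895.4, 2141.4 and 2037.4 in WT. WT UV 1 was the highest UV array and sng1 CO 1 the lowest CO array, and the second was 2.99 times the first. The UV change was -2.55 in tt4, -2.10 in sng1 and -2.42 in WT (log2, SE 0.19 each). AT2G43530, of the same cluster and separated from AT2G43550 by 2 protein-coding genes on chromosome 2, had UV signals from 795.6 to 1224 with a median of 941.8, against 1989 to 3783 with a median of 3045 in CO. Its change was smaller in each genotype, at -1.70 in tt4, -1.52 in sng1 and -1.63 in WT. Probe sets of neighbouring, similar genes can share signal, and this was not tested.

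STOMAGEN, also named EPFL9, encodes a peptide that mesophyll cells secrete and that promotes the formation of stomata. Its UV signals were 309.7, 253.3 and 115.5 in tt4, 312.9, 251.6 and 253.9 in sng1 and 316.0, 195.3 and 253.7 in WT, and its CO signals were 776.7, 879.7 and 602.8 in tt4, 507.3, 829.8 and 795.0 in sng1 and 954.9, 948.7 and 722.0 in WT. All UV plants lay below all CO plants, with tt4 UV 3 the lowest of all. The UV change was -1.84 in tt4, -1.36 in sng1 and -1.82 in WT (SE 0.31 each). Of the other stomatal lineage genes, 3 had a named probe set. MUTE was dim, with a median of 26.03 under UV and 33.34 in CO, and was called in no genotype. SPCH, which starts the lineage, was called lower in WT alone, at -1.04 ± 0.25 (SE; limma, adjusted p = 0.00923), while tt4 had -0.48 and sng1 0.05. FMA, which completes guard cell fate and is 1 of the genes the rule leaves out, was called lower in all 3 genotypes, at -0.65 in tt4, -0.66 in sng1 and -0.62 in WT. Its ratio of lowest CO to highest UV value was 1.152, below the threshold in any case. The guard cell markers with a named probe set were 2 of the 4 listed, FMA and AT1G22690, and their summed signal was 835.2 to 1726 on UV arrays and 2089 to 3967 on CO arrays, without overlap. Most of this sum was AT1G22690, at 612.1 to 1490 under UV and 1746 to 3594 in CO. FMA had 173.8 to 241.8 under UV and 278.5 to 385.8 in CO. Of the 4 listed mesophyll markers only RCA had a named probe set. RCA overlapped between the lights and changed by -0.22 in tt4, -0.13 in sng1 and -0.17 in WT. It was called lower in tt4 alone. The part of the guard cell and mesophyll markers in the level of STOMAGEN was not tested.

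RALFL33 and RALFL34 encode peptides of the rapid alkalinization factor family, which signal at the cell surface through receptor kinases and restrain cell expansion in the best studied cases. RALFL33 had 771.7, 772.7 and 873.4 in tt4 UV plants, 925.2, 805.6 and 968.1 in sng1 UV plants and 880.7, 1039.0 and 1024.2 in WT UV plants. Its CO signals were 1976.2, 1737.4 and 1604.2 in tt4, 2052.4, 2353.1 and 2261.1 in sng1 and 1852.2, 2129.1 and 1637.7 in WT. The 2 highest CO values were those of sng1 CO 2 and sng1 CO 3, and the 2 lowest UV values those of tt4 UV 1 and tt4 UV 2. RALFL34 had UV signals of 874.4 to 1255 (median 1079), against 2007 to 3319 (median 2374) in CO, and changes of -1.34, -1.05 and -1.21 in tt4, sng1 and WT. Of the 9 other RALFL genes with a named probe set, 3 were called lower in each genotype and none higher: RALFL22 (-1.25 in tt4, -0.91 in sng1, -0.84 in WT), RALFL24 (-1.08, -0.85 and -0.65 in the same order) and RALFL31 (-0.62, -0.29 and -0.53). Beside the RALFL counts, 14.1% of all probe sets were called lower in tt4, 11.6% in sng1 and 11.9% in WT. AT2G14900, of the family of gibberellin-regulated GASA peptides, had 124.7 to 224.2 under UV and 359.7 to 744.9 in CO.

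The 13 cell wall members had a median UV change of -1.86 in tt4, -1.47 in sng1 and -1.41 in WT. AT5G41050, of the pollen Ole e 1 family of wall-associated proteins, had the widest gap among them. Its signals ran from 78.72 to 107.6 (median 96.15) under UV and from 278.6 to 482.2 (median 327.6) in CO, and it changed by -1.99 in tt4, -1.55 in sng1 and -1.95 in WT. AT5G13140 of the same family had 240.1 to 537.2 under UV and 865.0 to 1460 in CO.

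GH9C2, an endoglucanase of glycosyl hydrolase family 9, had 129.0, 145.0 and 148.5 in tt4 UV plants, 210.6, 146.3 and 199.6 in sng1 UV plants and 246.0, 226.3 and 177.7 in WT UV plants. Its CO signals were 530.6, 501.0 and 584.6 in tt4, 482.3, 534.9 and 466.8 in sng1 and 539.7, 641.5 and 530.7 in WT. All tt4 UV plants lay below all WT UV plants, and in CO the genotypes overlapped. No genotype difference of GH9C2 was called in limma. The UV change was -1.94 in tt4, -1.41 in sng1 and -1.41 in WT (SE 0.15 each). Of the 14 other genes named GH9, 1 was called lower in each genotype and none higher. Among all probe sets 14.1% were called lower in tt4, 11.6% in sng1 and 11.9% in WT.

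EXLA2 is an expansin-like gene, and expansins loosen the wall without cutting its polymers. Its UV signals were 30.3, 25.6 and 50.0 in tt4, 26.0, 44.9 and 50.0 in sng1 and 54.3, 41.2 and 59.6 in WT, against CO signals of 138.2, 140.1 and 95.4 in tt4, 154.6, 139.3 and 219.2 in sng1 and 131.4, 134.1 and 107.5 in WT. The UV change was -1.86 in tt4, -1.95 in sng1 and -1.15 in WT (SE 0.30 each). Since several UV values are dim, a floor of 64 in place of 16 gave -0.96, -1.35 and -0.87. It was the only member among 27 measured expansins and xyloglucan hydrolases, the enzymes that cut and rejoin xyloglucan. Of the other 26, 8 were called lower in tt4, 6 in sng1 and 5 in WT and none higher in any genotype, with medians of -0.50, -0.46 and -0.39. EXPA8 had the deepest change among these, at -2.31 ± 0.69 in tt4 (SE; limma, adjusted p = 0.0256), -2.63 in sng1 and -2.55 in WT, and failed the rule because its highest UV value was 106.7 against a lowest CO value of 126.4. EXPA16, EXPA4 and XTH16 were also called lower in all 3 genotypes. For all probe sets the share called lower was 14.1% in tt4, 11.6% in sng1 and 11.9% in WT.

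Pectin, the gel-forming wall polymer, is the substrate of several members. AT5G48900, AT4G23820, AT3G16850 and AT1G60590 are of the pectin lyase-like superfamily, which holds polygalacturonases and pectate lyases. AT5G48900 had 134.8 to 334.8 under UV and 557.2 to 1033 in CO, and AT4G23820 had 615.6 to 919.6 under UV and 1653 to 2372 in CO. AT3G16850 moved least of the 4, by -1.15 in tt4, -1.08 in sng1 and -1.06 in WT. AT1G60590 differed most over genotypes, with -2.25 in tt4, -1.26 in sng1 and -1.71 in WT (SE 0.31 each), and its UV plants held 34.0 to 60.3 against 101.5 to 260.9 in CO. With a floor of 64 these changes were -1.57, -0.99 and -1.40. AT4G25260, of the family that inhibits invertases and pectin methylesterases, had 198.1 to 258.8 under UV and 485.3 to 734.1 in CO, and its changes of -1.35, -1.47 and -1.38 in tt4, sng1 and WT lay within 0.12 of each other.

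Other wall genes build polymers. ATCSLC08 is of the family that makes the backbone of xyloglucan, and its signals were 88.86 to 117.7 under UV and 187.6 to 329.0 in CO. Of the 4 other CSLC genes, 1 was called lower in tt4, 2 in sng1 and 1 in WT, led by CSLC5 at -0.72, -0.55 and -0.75. TBL45, of the family that adds acetyl groups to wall polymers, had 159.5 to 441.2 under UV and 697.1 to 1691 in CO. Of the 21 other TBL genes, 6 were called lower in tt4, 2 in sng1 and 2 in WT, and 1, TBL32, was called higher in sng1 (0.69). Beside the counts of both families, 14.1% of all probe sets were called lower in tt4, 11.6% in sng1 and 11.9% in WT. AT1G12500 and AT5G57100 are of the nucleotide-sugar transporter family, which brings sugar donors into the Golgi, and changed by -1.61 and -1.14 in tt4, by -1.47 and -1.32 in sng1 and by -1.30 and -0.92 in WT.

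**Figure D1:**
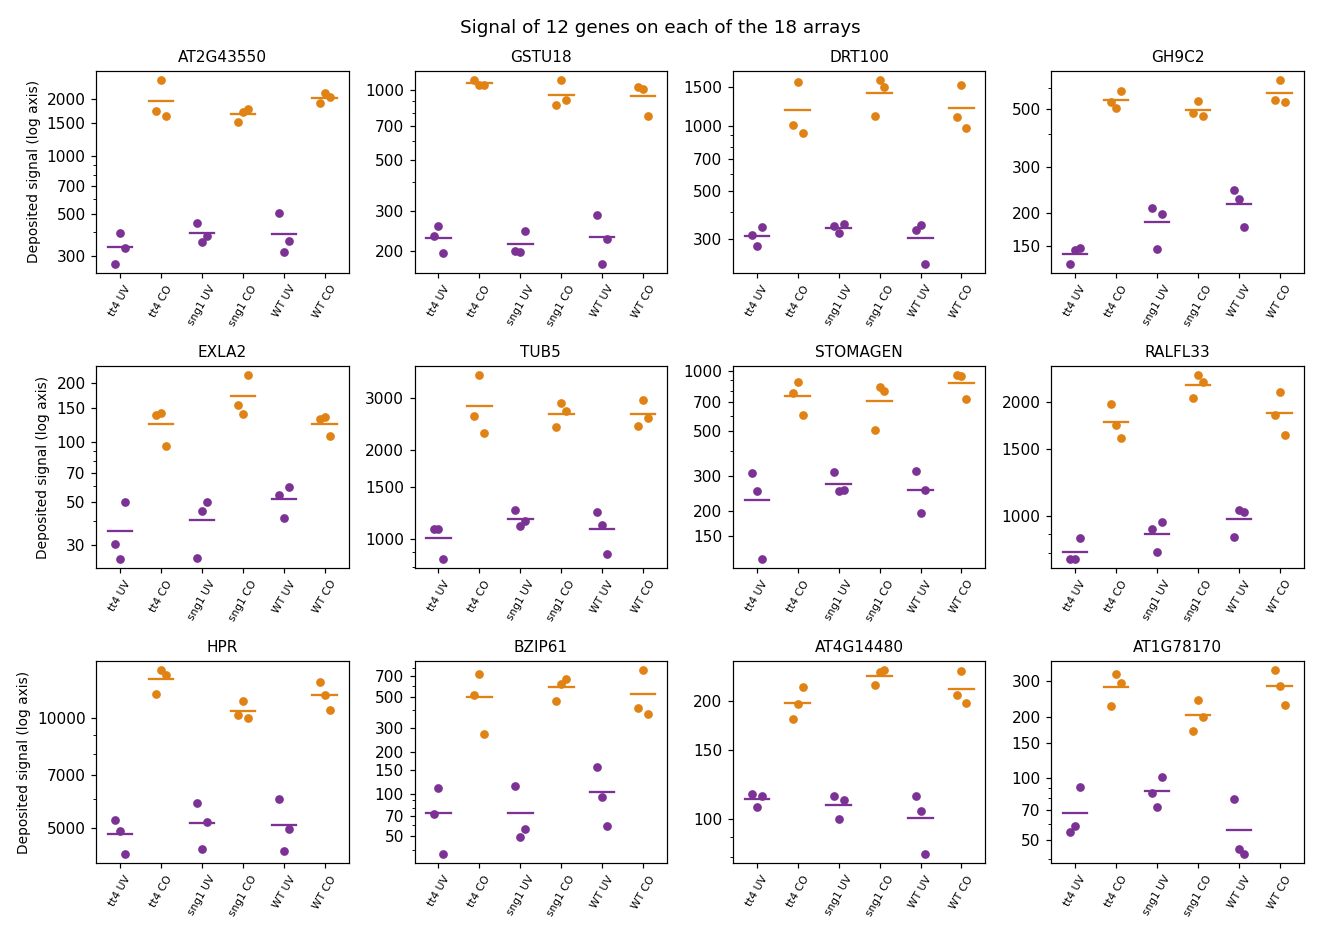
Deposited signal (log axis) of 12 genes on the 18 arrays, with 1 point per plant, UV in purple and CO in orange, and bars at the group means. In every panel all 9 UV plants lie below all 9 CO plants, as the rule requires. The tt4 UV plants of GH9C2 (129.0 to 148.5) lie below the WT UV plants (177.7 to 246.0), a difference that was not called in limma.

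The microtubule members are 3. TUB5 and TUB6 encode β-tubulins, which with α-tubulin form the microtubules that guide cellulose deposition. TUB5 had 1082, 1084 and 854.4 in tt4 UV plants, 1253, 1103 and 1148 in sng1 UV plants and 1234, 1113 and 888.3 in WT UV plants, against 2601, 3593 and 2287 in tt4, 2389, 2881 and 2709 in sng1 and 2415, 2960 and 2575 in WT in CO. TUB6 had 877.5 to 1136 under UV and 1772 to 2448 in CO, and changes of -1.26, -0.97 and -1.13 (SE 0.12 each). Of the 3 other TUB genes with a named probe set, TUB9 was called lower in all 3 genotypes (-0.37 in tt4, -0.53 in sng1, -0.46 in WT), TUB1 in all 3 (-1.25, -1.15 and -0.75), and TUB7 in WT alone (-0.97, limma, adjusted p = 0.0239; -0.72 in tt4 and -0.76 in sng1). Tubulin genes are similar in sequence, and shared signal between their probe sets was not tested. The share of all probe sets called lower was 14.1% in tt4, 11.6% in sng1 and 11.9% in WT.

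The gene iqd21 encodes a protein of the IQ-domain family, which binds calmodulin and associates with microtubules. Its signals were 148.2 to 232.3 under UV and 350.1 to 679.3 in CO, which put it just inside the threshold at a ratio of 1.507. Of the 14 other IQD genes, 4 were called lower in tt4, 4 in sng1 and 7 in WT, and IQD23 was called higher in tt4 and sng1 (0.55 and 0.68, against 0.32 in WT). Among all probe sets 14.1% were called lower in tt4, 11.6% in sng1 and 11.9% in WT.

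Of the 11 hydrolases and lipid transfer genes, 5 are GDSL-type lipases or esterases, a large family that acts on lipids and cutin-like substrates. AT1G33811 had 368.2 to 616.9 under UV and 1266 to 2032 in CO, and AT3G16370 had 814.0 to 1909 under UV and 3584 to 6365 in CO. AT1G29670 had 965.4 to 2049 under UV and 3108 to 6826 in CO. The other two, AT1G75880 and AT1G75900, lie on chromosome 1 with 1 protein-coding gene between them. AT1G75880 changed by -1.68, -1.66 and -1.62 in tt4, sng1 and WT, and AT1G75900 by -1.04, -1.23 and -1.23.

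AT1G27480, of the lecithin:cholesterol acyltransferase family, had 238.1 to 314.4 under UV (median 279.1) and 734.2 to 1039 in CO (median 821.7). It changed by -1.74 in tt4, -1.44 in sng1 and -1.66 in WT (SE 0.13 each). AT1G04040, of the family of acid phosphatases with a haloacid dehalogenase fold, had 193.0, 311.6 and 234.4 in tt4 UV plants, 377.9, 369.0 and 363.7 in sng1 UV plants and 259.6, 322.0 and 346.4 in WT UV plants. All sng1 UV plants thus lay above all tt4 UV and WT UV plants, while its CO values overlapped between genotypes over a range of 856.3 to 1753. This order was picked out after the values were seen, and no genotype difference of AT1G04040 was called in limma. AT2G03550, a carboxylesterase-like gene, had 168.7 to 329.6 under UV and 705.7 to 970.0 in CO. AT4G38690, of the family of phospholipase C-like phosphodiesterases, had 137.7 to 279.0 under UV and 436.4 to 1147 in CO. AT2G10940, a lipid transfer-like gene, had 2269 to 3637 under UV with changes of -1.91 in tt4, -1.26 in sng1 and -1.46 in WT. SCPL27, a serine carboxypeptidase-like gene, had 48.22 to 88.03 under UV and 152.8 to 257.8 in CO. Of the 28 other SCPL genes, 4 were called lower in tt4, 4 in sng1 and 6 in WT, and 1, 2 and 1 higher. Beside these counts, 14.1% of all probe sets were called lower in tt4, 11.6% in sng1 and 11.9% in WT.

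The 10 oxidoreductases and conjugating enzymes included the second widest gap of all members. GSTU18 is a glutathione S-transferase of the tau class, enzymes that attach glutathione to small molecules. Its UV signals were 233.4, 257.0 and 197.3 in tt4, 200.3, 199.8 and 244.3 in sng1 and 288.3, 176.8 and 227.2 in WT, and its CO signals were 1109.4, 1052.4 and 1059.7 in tt4, 864.6, 1105.8 and 905.6 in sng1 and 1036.9, 1010.7 and 776.9 in WT. It changed by -2.24 in tt4, -2.15 in sng1 and -2.07 in WT (SE 0.17 each), so the genotypes lay within 1 SE of their neighbours. Of the 10 other tau class genes, none was called in tt4. GSTU28 was called higher in sng1 (1.35) and WT (1.00), GSTU22 was called higher in WT (1.20), and GSTU26 was called lower in WT (-0.75). For all probe sets, 14.1% were called lower in tt4, 11.6% in sng1 and 11.9% in WT. Called higher were 12.7%, 11.9% and 12.5% in the same order.

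AT3G56060, of the glucose-methanol-choline oxidoreductases, had 64.24 to 126.6 under UV and 287.3 to 455.8 in CO. AT5G44410, of the berberine bridge enzyme-like flavoproteins, had 27.41 to 46.59 under UV and 93.12 to 185.6 in CO, and with a floor of 64 its changes of -2.02, -1.54 and -1.80 in tt4, sng1 and WT became -1.39, -0.84 and -1.08. AT1G06640, a 2-oxoglutarate-dependent oxygenase, had 658.8 to 868.2 under UV and 1703 to 2237 in CO. The short-chain dehydrogenase-like members were AT1G07440 with -1.43, -1.59 and -1.47 in tt4, sng1 and WT, AT2G29290 with -2.18, -1.71 and -1.79, and AT5G02540 with -2.19, -1.70 and -1.77. The group also held AT1G71695, a secreted peroxidase of the plant class, AT2G03750, a sulfotransferase, and AT4G29890, a choline monooxygenase-like gene, with UV changes between -1.74 and -1.01 over the 3 genotypes.

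The 8 plastid and photorespiration members had median changes of -1.26 in tt4, -1.24 in sng1 and -1.09 in WT. HPR encodes the peroxisomal hydroxypyruvate reductase, which carries out a late step of photorespiration. Its signals were 5268, 4891 and 4242 in tt4 UV plants, 5859, 4386 and 5206 in sng1 UV plants and 6008, 4313 and 4968 in WT UV plants, against 11679, 13526 and 13170 in tt4, 10225, 11146 and 10022 in sng1 and 12600, 11548 and 10559 in WT in CO. The changes were -1.22, -0.99 and -1.02 in tt4, sng1 and WT (SE 0.13 each). THIC, which makes the pyrimidine part of thiamine in the chloroplast, had 1882 to 2892 under UV and 4579 to 5966 in CO. CHL, a plastid lipocalin linked to the protection of thylakoid lipids, had 1208 to 1918 under UV and 2934 to 4210 in CO.

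CRR42 takes part in the chloroplast NAD(P)H dehydrogenase complex, which cycles electrons around photosystem I. Its signals were 127.9 to 209.5 under UV and 333.7 to 607.4 in CO. Of the 4 other CRR genes, 3 were called lower in tt4, 2 in sng1 and 1 in WT, with CRR21 in all 3 (-1.01, -0.64 and -0.88). AT5G09820, of the plastid fibrillin family of lipid-associated proteins, had the deepest change of the plastid members in each genotype. It had 122.8, 117.5 and 113.8 in tt4 UV plants, 123.1, 206.6 and 172.8 in sng1 UV plants and 217.5, 96.10 and 180.6 in WT UV plants, and changed by -2.50, -1.53 and -1.79 (SE 0.26 each). AT5G52780, similar to the photosystem II assembly factor PAM68, changed by -1.25, -1.47 and -1.19, AT2G28605, with a PsbP domain, by -1.27, -1.18 and -0.93, and AT1G74070, a cyclophilin, by -1.26, -0.95 and -1.08. The nuclear photosystem and Calvin cycle list had 9 genes with a named probe set, and none is a member. Of these, 4 were called lower in tt4, 3 in sng1 and 3 in WT. PSAN, SBPASE and PRK, called lower in each genotype, are left out by name, but their ratios of 1.179, 1.426 and 1.422 were below the threshold in any case. Beside the CRR and list counts, 14.1% of all probe sets were called lower in tt4, 11.6% in sng1 and 11.9% in WT. RCA, the Rubisco activase and the 1 measured mesophyll marker of 4, had 12830 to 15590 under UV and 15250 to 21940 in CO.

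Among the 9 light signalling and regulatory members, BZIP61, a basic leucine zipper transcription factor, had the deepest changes. Its UV signals were 71.6, 110.9 and 37.1 in tt4, 114.6, 49.4 and 56.1 in sng1 and 156.4, 94.9 and 58.7 in WT, and its CO signals were 510.9, 723.8 and 268.0 in tt4, 467.6, 611.7 and 669.8 in sng1 and 413.2, 773.0 and 375.6 in WT. The plants of a group thus spread widely, and the changes of -2.81 in tt4, -3.03 in sng1 and -2.32 in WT carried an SE of 0.49. It was the only member among 14 measured genes with a BZIP symbol. Of the other 13, 1 was called lower and 2 higher in tt4, 1 and 2 in sng1, and 2 and 2 in WT. Among all probe sets 14.1% were called lower and 12.7% higher in tt4, 11.6% and 11.9% in sng1, and 11.9% and 12.5% in WT. BZIP28 and BZIP60 were called higher in all 3 genotypes (BZIP60: 1.28 in tt4, 1.06 in sng1, 1.08 in WT), bZIP52 was called lower in all 3 (-1.06, -0.97 and -0.74 in the same order), and BZIP17 was called lower in WT (-0.30).

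AT4G14480, listed with the synonym BLUS1, encodes a protein kinase of guard cells that acts in the opening of stomata under blue light. Its signals were 116.2, 107.4 and 114.3 in tt4 UV plants, 114.4, 100.2 and 111.9 in sng1 UV plants and 114.8, 104.9 and 81.4 in WT UV plants, against 180.1, 196.5 and 217.5 in tt4, 220.5, 238.2 and 240.3 in sng1 and 208.1, 239.6 and 198.4 in WT in CO. Its change was the smallest of all members in tt4, at -0.80, with -1.04 in sng1 and -1.02 in WT (SE 0.12 each). The summed guard cell markers given above moved the same way, and their part here was not tested either. AT3G19850, of the NPH3 family of proteins that act with the blue light receptors phototropins, had 173.8 to 261.7 under UV and 476.7 to 773.9 in CO.

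AT1G78020, a zinc finger protein of the FLZ family, had 208.8 to 357.3 under UV and 703.6 to 1329 in CO, and changed by -1.69 in tt4, -1.92 in sng1 and -1.88 in WT. AT1G49010, a MYB-like gene, had 128.9 to 216.6 under UV and 332.8 to 454.0 in CO. The F-box gene AT3G23880 was the most uneven member among UV plants, with the highest log2 SD over members in each of the 3 UV groups (1.08 in tt4, 0.70 in sng1 and 1.07 in WT). Its UV signals were 107.6, 56.7 and 22.0 in tt4, 85.2, 47.3 and 31.2 in sng1 and 114.7, 31.6 and 31.2 in WT, so that replicate 1 was the highest in each genotype. The other F-box gene, AT1G57790, had 182.1 to 246.5 under UV and 412.8 to 541.7 in CO. AT5G17600, a RING-type ubiquitin ligase-like gene, and AT1G54820, a kinase-like gene, had UV changes between -1.92 and -1.04 over the genotypes.

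The 6 membrane transport members were led by SFP2, a sugar porter of the ERD6-like family. It had 73.9, 53.7 and 87.3 in tt4 UV plants, 80.6, 60.1 and 61.4 in sng1 UV plants and 72.9, 67.9 and 68.0 in WT UV plants, against 213.7, 252.5 and 196.0 in tt4, 199.97, 209.8 and 212.4 in sng1 and 177.8, 185.8 and 187.6 in WT in CO. All CO plants of both mutants lay above all WT CO plants, an order picked out after the values were seen. No genotype difference of SFP2 was called in limma. AT5G13400, of the peptide and nitrate transporter family, changed by -1.48, -1.51 and -1.52 in tt4, sng1 and WT, nearly the same value in each. AT5G62720, of the HPP family of plastid membrane proteins, had 1479 to 1961 under UV and 3228 to 5118 in CO. AT5G02940, similar to the ion channel POLLUX, AT1G32090, of the osmosensitive channel family, and AT5G17700, of the MATE family of efflux carriers, had UV changes between -1.37 and -0.75.

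The leucine-rich repeat protein gene DRT100, first isolated through its effect on DNA damage tolerance in bacteria, had the third widest gap of all members. Its signals ran from 230.3 to 351.6 under UV (median 329.1) and from 923.3 to 1624 in CO (median 1103), and it changed by -1.91 in tt4, -2.06 in sng1 and -2.02 in WT (SE 0.24 each). The related AT3G20820 had 546.9 to 920.6 under UV and 1483 to 2618 in CO.

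For 37 members no role is given here. AT5G01015 had the widest gap of these, with 86.31 to 146.7 under UV and 376.0 to 678.3 in CO and changes of -2.39 in tt4, -2.24 in sng1 and -2.06 in WT. AT1G17090 had 33.70 to 71.50 under UV and 170.4 to 281.7 in CO, AT5G62140 had 59.27 to 109.0 under UV and 249.7 to 389.4 in CO, and AT4G33960 had 160.4 to 285.1 under UV and 588.0 to 1026 in CO. AT2G04790 had the deepest change of the 37, at -2.78 in tt4, with -2.26 in sng1 and -2.07 in WT. The next in gap were AT1G78995, AT5G03120, AT1G15410, AT1G16170, AT5G01075, AT3G55420, AT1G14345, AT4G37080, AT5G18460, AT1G78170, AT1G15260, AT5G23920, AT1G31920, AT3G44020, AT3G13000 and AT3G18050. The rest were AT1G78450, AT3G42800, AT5G12900, AT1G55360, AT4G25780, AT3G05900, AT1G65295, AT3G08600, AT1G72030, AT1G58150, AT4G16410, AT4G18570, AT5G19970, AT3G23760, AT1G68110 and AT4G21620. Over these 37 the changes lay between -2.78 and -1.08 in tt4, between -2.38 and -0.81 in sng1 and between -2.34 and -0.90 in WT.

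**Figure D2:**
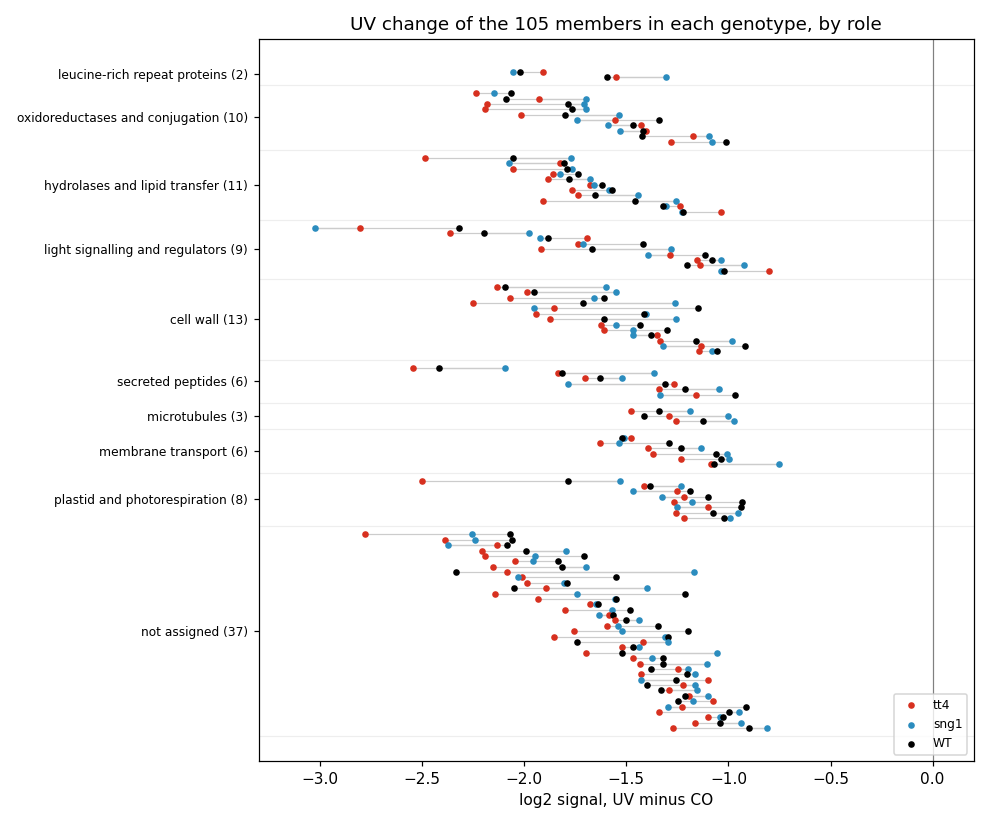
UV minus CO on the log2 scale (horizontal axis) for each of the 105 members, 1 row per gene, in tt4 (red), sng1 (blue) and WT (black), grouped by role with the number of genes in brackets. Most rows are short, since the 3 genotypes lie within 0.5 of each other for 87 members, and the single row longer than 1 is AT1G78170.

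Members close to the threshold show how it falls. AT5G17700, iqd21 and AT4G21620 were just inside, at ratios of 1.501, 1.507 and 1.508. AT3G18800, AT1G14120 and AT5G53500 were just outside, at 1.499, 1.499 and 1.491. At a threshold of 2 the members would have been 14. Separation of the lights without any ratio was far more common, with CO above UV and no overlap for 951 (7.04%) of the probe sets with 1 gene. Turned round, the rule gave 132 genes whose lowest UV value was more than 1.5 times their highest CO value. A single array could decide membership: WT UV 1 was the highest UV array for 41 of the 105 members, and without it 136 genes would have met the rule. Without tt4 CO 3, the lowest CO array for 21 members, 131 would have.

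Low signals bore on several members. With a floor of 64 in place of 16 the UV change moved by over 1.5 times, as a fold, for 7 members in tt4, 6 in sng1 and 7 in WT, 9 genes in all: AT5G44410, AT1G60590, AT3G23880, AT1G78450, EXLA2, AT3G42800, AT5G12900, AT4G25780 and AT5G19970. AT5G19970 became -0.42 in tt4 and 0 in sng1 and WT, where its values ended level with the floor after quantile normalization. AT3G42800 had a highest UV signal of 26.27 and deposited values as low as 3.09 before the floor of 16, and AT1G78450 had a highest UV signal of 36.33. Both had all 9 CO plants above the floor, from 41.74 to 98.59 and from 58.51 to 122.8. All 3 sng1 UV plants of AT3G42800 were under the floor, and its mean deposited signal of 69.9 in sng1 CO plants was 4.37 times the floor. That ratio is of means of deposited signals and differs in kind from the log2 changes. The log2 change of AT3G42800 in sng1 ran from -2.12 to -1.86 with 1 array left out. With a floor of 64 its changes became -0.19, -0.12 and -0.05 in tt4, sng1 and WT, since all its UV signals and several of its CO signals lie under 64.

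The members' mean over each array shows how even the plants were. Mean log2 signal over the 105 genes was 7.71 ± 0.04 in tt4 UV, 7.78 ± 0.09 in sng1 UV and 7.79 ± 0.19 in WT UV plants, against 9.35 ± 0.09 in tt4 CO, 9.24 ± 0.09 in sng1 CO and 9.27 ± 0.16 in WT CO plants (SD, n = 3 each). WT UV 1 stood highest among UV plants at 7.99, and 89 of the 105 members lay above the UV mean on it. The lowest UV plant was WT UV 2 at 7.62, and the 2 WT groups spread most. In CO the means ran from 9.12 on WT CO 3 to 9.46 on tt4 CO 2. Over all probe sets with 1 gene the array means lay between 6.95 and 6.97 after quantile normalization, which sets the arrays to 1 common distribution.

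**Figure D3:**
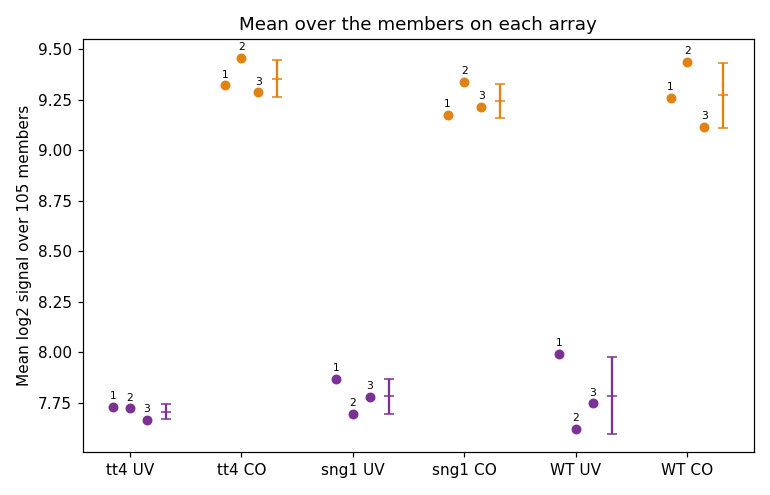
Mean log2 signal over the 105 members (vertical axis) on each array, by group, with the replicate number at each point and the group mean ± SD beside the points. WT UV 1 is the highest UV plant at 7.99, and the 3 tt4 UV plants lie closest together (SD 0.04).

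Genotype comparisons within a light were tested in limma over all 22746 probe sets. The rule did not compare genotypes, but it used the same values. It set a bound on the UV and CO values of every genotype, which limits what these comparisons can show for the members. No member was called in any of the 6 such comparisons. Beside that, 0.0132% of all probe sets were called for tt4 minus WT under UV, 0.022% for sng1 minus WT under UV and 0.0264% for tt4 minus sng1 under UV, and in CO 0.022%, 0.00879% and 0.0484% for the same 3 comparisons. At an unadjusted p under 0.05 there were 8 members for tt4 minus WT under UV (7.62%, against 4.76% of all probe sets), all lower in tt4, then 3 for sng1 minus WT (2.86%, against 4.44%) and 4 for tt4 minus sng1 under UV (3.81%, against 5.54%). In CO there were 3 for tt4 minus WT (2.86%, against 4.59%), 1 for sng1 minus WT (0.952%, against 5.1%) and 6 for tt4 minus sng1 (5.71%, against 6.44%). The SE of a member's difference was 0.196 at the median, which gives a 95% interval of 0.427 to either side, before any adjustment for the number of probe sets. A call after adjustment needed a wider gap than that interval, and the missing calls do not show that the genotypes had equal levels. Single genes whose plants did not overlap between genotypes are remarked on here and above. The share of members or of all probe sets with such an order is not given, so these orders are not a result about the members or the genotypes.

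GH9C2 had the smallest p for tt4 minus WT under UV, with -0.59 ± 0.15 (SE; limma, adjusted p = 0.829), and all 3 tt4 plants lay below all 3 WT plants. Against sng1 its difference under UV was -0.39 ± 0.15 (limma, adjusted p = 0.831), and there the plants of tt4 and sng1 overlapped. AT3G08600 came next, with 217.3, 243.2 and 217.4 in tt4 UV plants, 240.0, 221.7 and 198.0 in sng1 UV plants and 300.004, 254.2 and 292.4 in WT UV plants. Both mutants lay below WT in every plant, by -0.31 ± 0.10 in tt4 (limma, adjusted p = 0.915) and -0.34 ± 0.10 in sng1 (limma, adjusted p = 1.0). AT4G16410 differed by -0.24 ± 0.08 for tt4 minus sng1 under UV (limma, adjusted p = 0.771), with 1698, 1819 and 1561 in tt4 against 2017, 1983 and 2006 in sng1, and these plants did not overlap. None of these passed the adjustment.

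In CO the smallest p values for tt4 minus WT fell on SFP2 and AT5G18460, with 0.34 ± 0.14 each (limma, adjusted p = 1.0 for both). RALFL33 had 0.25 ± 0.11 for sng1 minus WT (limma, adjusted p = 0.978) and -0.33 ± 0.11 for tt4 minus sng1 (adjusted p = 0.622), and all sng1 CO plants lay above all tt4 CO plants. TUB6 had -0.22 ± 0.12 for sng1 minus WT (adjusted p = 1.0). AT5G18460 had 0.40 ± 0.14 for tt4 minus sng1 (adjusted p = 0.646). None of these passed the adjustment either. Over all members the median of tt4 minus sng1 in CO was 0.14, with 77 of 105 higher in tt4. It was 0.05, with 65 higher, without the plant tt4 CO 2. The median over all probe sets was 0, and no p is given for such medians.

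The difference between a mutant's UV effect and that of WT was called for no member in limma. Background calls were 0.0044% for tt4 and 0.0% for sng1, and 4 members each passed an unadjusted p under 0.05 (3.81%, against 4.54% and 3.02% of all probe sets). The rule asks for separation in every genotype, which keeps members with a lost response in 1 genotype out, and the median 95% interval, before adjustment, was 0.604 to either side. AT1G78170 had the widest spread over genotypes. Its UV signals were 54.5, 58.3 and 91.1 in tt4, 84.7, 72.5 and 101.7 in sng1 and 79.5, 44.9 and 42.5 in WT, and its CO signals 226.6, 327.7 and 292.8 in tt4, 171.9, 243.8 and 201.3 in sng1 and 339.9, 283.2 and 229.1 in WT. The UV change was -2.09 in tt4, -1.17 in sng1 and -2.34 in WT, and sng1 differed from WT by 1.16 ± 0.40 (SE; limma, adjusted p = 1.0).

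AT4G25780 changed by -2.14 in tt4, -1.74 in sng1 and -1.21 in WT, and tt4 differed from WT by -0.93 ± 0.34 (limma, adjusted p = 1.0). AT4G16410 differed in the same way by -0.37 ± 0.12 (adjusted p = 1.0), and for AT3G08600 the UV effect of sng1 minus that of WT was -0.38 ± 0.14 (adjusted p = 1.0). The next widest spreads over genotypes were those of AT1G60590 (0.99), AT5G09820 (0.97) and EXLA2 (0.80), in the values given above. With a floor of 64 the spread was 0.20 for AT4G25780, 0.58 for AT1G60590 and 0.49 for EXLA2.

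Of the 105 members, 67 had their deepest change in tt4, 23 in sng1 and 15 in WT. The change was deeper in tt4 than in WT for 81 members (77.1%), with a median difference of -0.16, against 55.8% and a median of 0 over all probe sets. Over the 132 genes separated upward it was below 0 for 38.6%, with a median of 0.08. The figure for the members rested in good part on 1 plant: without WT UV 1 the median was -0.03, with 63 of 105 deeper in tt4, and over all single arrays left out it ran from -0.24 to -0.03. The same WT CO and WT UV plants enter every gene's difference, so the 81 genes are not separate observations.

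**Figure D4:**
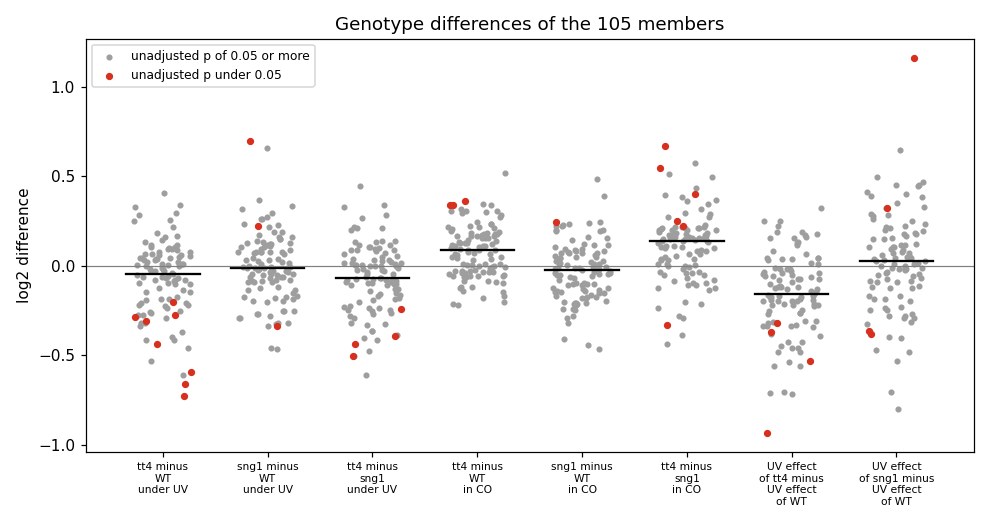
Log2 differences (vertical axis) of the 105 members in the 8 genotype comparisons, 1 point per gene, with black bars at the medians and red points at an unadjusted p under 0.05. No point passes the adjustment over all probe sets, and the bars lie between -0.16 (UV effect of tt4 minus that of WT) and 0.14 (tt4 minus sng1 in CO).

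The members lie on all 5 nuclear chromosomes, 35 on chromosome 1, 12 on chromosome 2, 19 on chromosome 3, 14 on chromosome 4 and 25 on chromosome 5, which as shares (33.3%, 11.4%, 18.1%, 13.3% and 23.8%) can be read against those of all probe sets with 1 gene (25.8%, 16.5%, 20.5%, 14.7% and 22.5%). Of the 105, 19 carry a symbol of their own in the supplied tables and 86 only a locus. Of the other lists read beside the members, auxin transport and response had 15 measured genes, none a member, with 1 called lower in tt4, 2 in sng1 and 1 in WT, counting IAA29, which the rule leaves out. Beside these list counts, 14.1% of all probe sets were called lower in tt4, 11.6% in sng1 and 11.9% in WT. Chlorophyll synthesis and turnover had 4, of which NOL and CHLM were called lower in all 3 genotypes (CHLM: -1.19 in tt4, -0.83 in sng1, -0.78 in WT). Starch and sugar had 15, of which 2, SWEET16 and SWEET17, were called lower in all 3, a share near that of all probe sets called lower. Aliphatic glucosinolates had 3. UGT74B1, a glucosyltransferase of glucosinolate synthesis, was called higher in all 3 genotypes (0.65 in tt4, 0.91 in sng1, 0.61 in WT), BCAT4 was called lower in tt4 (-1.75) and sng1 (-1.27), and AT2G31790 in tt4 (-0.72). HYH, a transcription factor of light signalling and the 1 gene of its list with a named probe set, was called higher in all 3, at 1.15, 1.99 and 1.92. LYC, the 1 carotenoid gene with a named probe set, was called lower in tt4 (-0.55), and GI, the 1 such clock gene, was called in no genotype. The shoot meristem marker CLV3, 1 measured of 3 listed, was at 16 to 19.05 under UV and at the floor of 16 in CO, and the root marker EXPA7, 1 of 6, was at 16 to 48.07 under UV and 16 to 43.47 in CO. The marker lists of epidermis, trichome, phloem, dividing cells, floral organs and senescing cells had no named probe set.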

How the data were processed

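Per the labels' protocols, RNA of each plant's aerial region was isolated with a plant column kit, and biotin-labelled cRNA from 10 µg of it was hybridized by the standard Affymetrix protocol. The deposited values are linear intensities, 1 per probe set for 22810 probe sets on each of 18 arrays, and were read as the authors made them; the mean without the highest and lowest 2% was 500 on every array, and array medians lay between 163 and 185. Which software, background correction and scaling target were used was not given in the sources at hand.

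The 64 control probe sets were left out of the tests. The deposited signals were brought to 1 distribution by quantile normalization with limma 3.58.1 (R 4.3.3), floored at 16 and put on the log2 scale. A model with the 6 groups as coefficients left 12 residual degrees of freedom, and eBayes p-values were adjusted by Benjamini-Hochberg over 22746 probe sets, with a call at an adjusted p under 0.05. The script was tested on simulated data. Signals per plant in the text are as deposited, and changes are from the normalized log2 values. With 3 arrays in a group, precision is limited by their number.

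Names came from the supplied probe annotation and the RefSeq table of loci and symbols (assembly TAIR10.1, used for names, chromosomes and neighbouring genes). All 105 members were found there, and none had another named probe set. Roles of genes that carry only a locus are background knowledge of the protein family. Promoters were not analysed here.

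The members and the gene lists were chosen with earlier results of these data known. Named genes were the 25 members of widest gap, the 2 of smallest adjusted p in each genotype comparison, list and family members, neighbouring genes, the 3 on each side of the threshold and the 5 of widest spread over genotypes. The other members were described by role after their values were seen. Alternatives were the deposited signals without quantile normalization, arrays centred on their medians, a floor or a filter of 64, only the groups compared, a threshold of 2, a block for replicate number, and each array left out in turn.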

Additional observations from a re-analysis of the deposited data

How the results depend on the processing

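No member was called in any of the 8 genotype comparisons under any alternative fit of limma, including every array left out in turn. This made 0 calls in 192 of 192 repeated comparisons, which share arrays and are not separate checks. The number of members was 14 at a threshold of 2 and ran from 105 to 136 with 1 array left out. Leaving out an array can add members but cannot remove any, since the rule compares the lowest CO with the highest UV value. The lower end of 105 was thus fixed in advance. The median UV change of the members ran from -1.66 to -1.51 in tt4, from -1.49 to -1.33 in sng1 and from -1.52 to -1.33 in WT with 1 array left out, and a floor of 64 gave -1.48, -1.35 and -1.38. Leaving out 1 array turned the sign of several medians over the members: tt4 minus WT under UV ran from -0.17 to 0.04, sng1 minus WT under UV from -0.10 to 0.08, tt4 minus WT in CO from -0.0020 to 0.14, sng1 minus WT in CO from -0.11 to 0.05, and the UV effect of sng1 minus that of WT from -0.08 to 0.11. These medians were added after the data were seen. Without 1 array, the difference for GH9C2 (tt4 minus WT under UV) ran from -0.73 to -0.50, and that for AT1G78170 (UV effect of sng1 minus that of WT) from 0.99 to 1.45. Of 1890 repeats of the members' UV changes, 1834 stayed within the spread between plants and 56 moved beyond it, in 27 genes. Of these 56, 28 came with the floor of 64, 14 with arrays centred on their medians, 9 with 1 array left out and 5 with the signals as deposited. The 315 repeats with a block for replicate number could not move, since each group holds every number once. The rule chose the members on these same UV changes, so the repeats are no independent check of them. Replicate numbers were not taken to pair the plants, since only some pairs correlated at over 0.1: deviations of arrays with the same number correlated at -0.37 to 0.39 (median -0.02, 45 pairs; the 3 pairs of UV replicate 1 had 0.17, 0.21 and 0.25), and those with different numbers at -0.41 to 0.47 (median 0.03, 90 pairs). With the replicate number as a block, 0 members were called in each comparison. The limit here is precision: with 3 plants a group, the median 95% interval of a genotype difference was 0.427 to either side before adjustment, and a call needed more (GH9C2, at -0.59 ± 0.15, was not called). The 9 dim members named in the report have changes that depend on the floor.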

Other observations

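The plants with the highest mean over the members carried the same number in each genotype: replicate 1 under UV (7.73 in tt4, 7.87 in sng1 and 7.99 in WT, log2) and replicate 2 in CO (9.46 in tt4, 9.34 in sng1 and 9.44 in WT). In tt4 UV the next plant was at 7.72, so the order there is not resolved. No source used here says what a replicate number stands for. STOMAGEN and AT3G23880 were also highest on replicate 1 in each UV group, in the values given above.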
